A study of Mus musculus with 6 samples.

Results

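The 10 genes described here encode extracellular protease inhibitors and their clearance receptor, out of 35275 genes counted in mouse spinal cord. They are A2m (alpha-2-macroglobulin), Lrp1 (a receptor, not an inhibitor), the serpins Serpina3n, Serpine2 and Serpini1, the tissue inhibitors of metalloproteases Timp1, Timp2, Timp3 and Timp4, and Cst3 (cystatin C). The rows were found by Ensembl identifier and gene symbol, and all 10 passed edgeR's filter on low counts with 16137 genes. A2m was picked because of its large fall in the same comparison, so its values are a description and carry no test. The other 9 genes were picked by protein class, though with earlier results of these data known. They are tested with p-values adjusted over all 16137 genes, which make no allowance for that choice.

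Whole spinal cord of adult C57BL/6 mice was used, with 3 Sox2 cKO mice (mGfap-Cre:Sox2fl/fl) and 3 Ctrl mice. In Sox2 cKO, a mouse Gfap promoter drives Cre recombinase, which removes the floxed gene of the transcription factor SOX2 in most astrocytes. Other cell types of the tissue were sequenced with the astrocytes, and a lower count can mean fewer cells of a type or less RNA per cell, which cannot be told apart. The genotype label of Ctrl is mGfap-Cre:Sox2+/+, the design text gives either Cre or Sox2fl/fl, and the methods give Sox2fl/fl littermates without Cre. The age is 80 days in the protocol label and 90 days in the characteristics label.

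Poly(A) RNA was counted per gene, with 21507911 to 28392184 counts per library. Columns of the deposited tables carry numbers instead of sample names, and even numbers were taken as Ctrl and odd numbers as Sox2 cKO. This follows the mouse numbers on a protein blot in the study, and the group means listed by the authors matched for 1999 of 1999 genes, with 0 matches after exchanging the groups. Which library is which sample label is unknown, so libraries are called by their column number. Sox2 fell from 19.9, 14.8 and 29.5 CPM (counts brought to a common library size with TMM factors) in Ctrl libraries 2, 4 and 6 to 3.16, 2.69 and 2.98 in Sox2 cKO libraries 1, 3 and 5. Gfap, the intermediate filament of astrocytes, fell by 1.11 on the log2 scale. Summed astrocyte markers were 9620 to 11620 CPM in Ctrl and 7534 to 7841 CPM in Sox2 cKO. By the test 5 of 10 were lower and 1 higher, beside 12.4% and 12.2% of all tested genes. Xist, transcribed in female cells, was above 100 CPM in Ctrl libraries 2 and 4 and in Sox2 cKO library 5 only, whereas the methods describe the same makeup by sex in both groups.

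Extracellular proteases cut matrix, growth factors and receptors, and inhibitors released by glia and neurons limit where and how long they act. A2m is a trap: a protease that cuts its bait region is enclosed, and the changed A2m is then bound by Lrp1 and taken into the cell. Serpins offer a reactive loop as a false substrate and stay bound to the serine protease, TIMPs fill the active site of metalloproteases, and cystatins block cysteine cathepsins. Lrp1 also clears serpin-protease complexes, which links both ends of the system.

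Upstream sequences are shown for the members that passed the test, because 2 of them fell and 1 rose. They were taken from RefSeq's table (GRCm38.p6), which held 9 of the 10 members. A2m was not in it. Each run reads 5′ to 3′ on the gene's strand and ends at the RefSeq transcription start, or before any exon base of the gene in GENCODE M21. The Serpine2 run lies in no M21 exon but inside the M21 gene span, since another M21 transcript starts further upstream at 79861180. Capitals mark CAAAG, the core bound by SOX proteins, on either strand and TTCNNNGAA, the letters bound by STAT factors. The motifs do not overlap here. Of 32851 upstream regions of 250 bases, 48.6% held CAAAG or its complement and 7.02% held TTCNNNGAA, so the first is common in any promoter.
Lrp1, chr10:127621149-127621398, minus strand: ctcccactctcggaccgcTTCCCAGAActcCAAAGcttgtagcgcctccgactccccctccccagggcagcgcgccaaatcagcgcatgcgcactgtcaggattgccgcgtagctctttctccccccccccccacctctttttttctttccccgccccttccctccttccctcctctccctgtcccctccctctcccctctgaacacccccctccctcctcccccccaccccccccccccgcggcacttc
Serpine2, chr1:79858697-79858915, minus strand: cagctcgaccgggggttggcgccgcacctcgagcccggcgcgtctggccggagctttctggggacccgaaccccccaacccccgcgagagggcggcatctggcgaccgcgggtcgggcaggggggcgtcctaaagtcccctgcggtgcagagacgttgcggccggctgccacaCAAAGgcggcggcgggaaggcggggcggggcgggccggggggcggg
Serpina3n, chr12:104406458-104406707, plus strand: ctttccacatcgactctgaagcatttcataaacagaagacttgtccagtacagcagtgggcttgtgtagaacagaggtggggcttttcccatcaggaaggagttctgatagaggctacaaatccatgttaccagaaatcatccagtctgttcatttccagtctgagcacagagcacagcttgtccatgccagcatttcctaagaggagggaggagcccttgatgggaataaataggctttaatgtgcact

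Lrp1 held both motifs, Serpine2 held CAAAG, and Serpina3n held neither within these 250 bases. Over the 9 members with a sequence, 5 held CAAAG on either strand and 1 held TTCNNNGAA. The study's supplement also lists a SOX2 site from cerebral cortex chromatin with Cst3 as its nearest gene. It lies in a window of 101 bases, chr2:148890133-148890233 of mm10, 14441 bases upstream of the Cst3 start and inside the unclassified transcript Gm38221. The peaks behind it were not analysed here. The site comes from the study's shorter list of strongly enriched sites, and its wider list was not searched. Nothing follows from this for SOX2 sites near the other members. The site of 11 bases is in capitals between its flanks.
Cst3 window, plus strand: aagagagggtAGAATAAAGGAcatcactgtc

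Levels per gene length (FPKM, made by the authors from counts, gene length and library total) spanned a wide range among the members. Cst3 was highest in both groups, with 695 ± 92.0 FPKM (SD, n = 3) in Ctrl, above 99.8% of tested genes. Timp2 at 92.5 ± 11.2 FPKM, Serpine2 at 70.6 ± 3.12 FPKM, Timp4 at 50.9 ± 3.90 FPKM and Lrp1 at 44.7 ± 9.24 FPKM followed in Ctrl. Serpini1, Serpina3n and Timp3 came next at 23.4 ± 4.44, 21.6 ± 2.25 and 20.9 ± 3.52 FPKM, and each overlapped the next in that order. A2m stood at 13.6 ± 6.03 FPKM, with its highest library inside the range of Timp3, and Timp1 was lowest at 1.73 ± 0.664 FPKM. Timp4 and Lrp1 also overlapped, while the other neighbours in the Ctrl order did not.

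In Sox2 cKO the order differed at 3 places. A2m took the last position at 1.83 ± 0.237 FPKM and overlapped Timp1 at 2.16 ± 0.695 FPKM. Its share of tested genes at a lower mean FPKM went from 71.8% in Ctrl to 26.0% in Sox2 cKO. Timp4 at 63.1 ± 6.18 FPKM passed Serpine2 at 62.4 ± 3.46 FPKM, but their libraries overlapped. Serpina3n at 33.2 ± 5.89 FPKM passed Lrp1 at 29.8 ± 1.76 FPKM and Serpini1 at 27.9 ± 0.807 FPKM. Its range overlapped those of both Lrp1 and Serpini1. Such orders are descriptions, since no test was made between genes. Fold changes in these libraries also followed gene length, as described with Lrp1, and the FPKM values were not corrected for that trend.

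**Figure D1:**
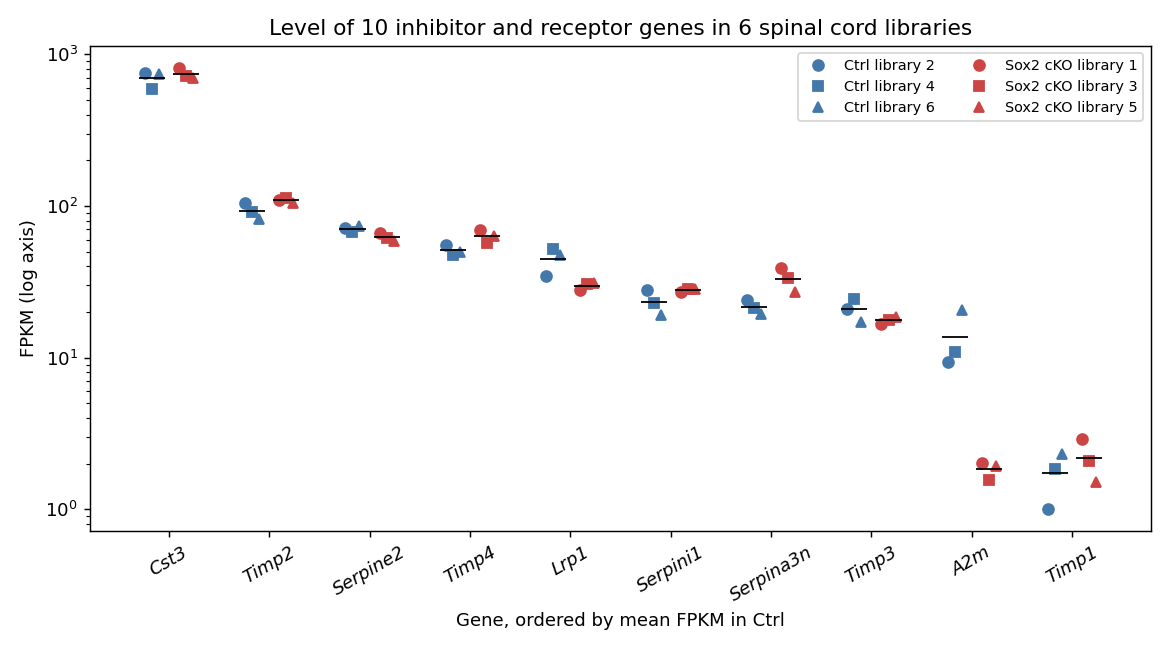
FPKM (log axis) of the 10 genes in 3 Ctrl libraries (blue) and 3 Sox2 cKO libraries (red), with group means as black bars. The A2m points of Sox2 cKO, 1.56 to 2.01 FPKM, lie among those of Timp1, whereas in Ctrl they lie between 9.30 and 20.5 FPKM.

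A2m (ENSMUSG00000030111, chr6:121635376-121679227, plus strand, mm10) traps proteases of every catalytic class. It had 975, 1281 and 2103 counts in Ctrl libraries 2, 4 and 6, which were 43.7, 53.3 and 101.5 CPM. In Sox2 cKO libraries 1, 3 and 5 it had 202, 207 and 234 counts, or 8.87, 7.06 and 8.84 CPM. The groups did not overlap, and Ctrl library 6 was high within its group. The fitted log2 fold change was -3.004, an 8.02-fold lower level, and it was -2.88 after the correction for gene length described with Lrp1. The coefficient of variation between libraries was 46.8% in Ctrl and 12.5% in Sox2 cKO. Without Ctrl library 6 the log2 fold change was -2.56, and over the 6 edgeR fits that each left out a library it lay between -3.23 and -2.56.

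Some other measures also differed between libraries, and their part in the fall of A2m was not tested. The pair of Ctrl libraries with high Xist had the lower A2m levels of their group, while Sox2 cKO library 5, also high in Xist, stood at 8.84 CPM beside 8.87 CPM in library 1. With a term for Xist in the edgeR fit the log2 fold change of A2m was -3.10. Summed meningeal fibroblast markers were 131 CPM in Ctrl library 6 against 309 to 332 CPM in the other Ctrl libraries and 223 to 261 CPM in Sox2 cKO, so they were lowest where A2m was highest. Hepatocyte markers, relevant because liver makes plasma inhibitors, summed to at most 5.11 CPM in any library.

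Close relatives of A2m held few reads. Mug1 and Mug2 had at most 6 counts in a library, and Pzp had 22 to 64. Pzp, a protease trap of the same structure, was not called (log2 fold change 0.04, adjusted p = 0.93, edgeR), and its sign turned to -0.23 with a term for Xist. Of the 5 relatives tested, only Cd109, a membrane-anchored family member, was called. It had 5.43, 7.40 and 8.16 CPM in Ctrl and 3.47, 3.10 and 4.19 CPM in Sox2 cKO (log2 fold change -0.96, edgeR adjusted p = 0.014). The complement proteins C3 and C4b, which share the thioester fold, had log2 fold changes of 0.18 and -0.35 without passing the test (edgeR adjusted p = 0.38 and 0.13). Among genes counted within 300000 bases of A2m, Iqsec3, a synaptic exchange factor, was called with a log2 fold change of -0.36 (edgeR adjusted p = 0.048). After the length correction Iqsec3 stood at -0.05 (edgeR adjusted p = 0.67), and with a term for Xist its edgeR adjusted p was 0.075. Slc6a13 and Slc6a12, transporters of GABA and betaine, had 0.38 and 0.45 (edgeR adjusted p = 0.48 and 0.38).

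Genes were ranked by the Pearson correlation of log2 CPM with A2m over the 6 libraries, among 14537 genes with a mean of at least 1 CPM. The closest were Mpv17l (r = 0.998), Rnf168 (0.998), Ptp4a2 (0.998), Rin2 (0.995) and Sox8 (0.995). All 5 separate the groups and are highest in Ctrl library 6, as A2m is, and 347 genes had r above 0.95. Such values over 6 points that share a group difference carry no p. Gfap had r = 0.989 and Sox2 had r = 0.988. Among the lists of inhibitors and proteases, Cd109 (0.962), Pcsk6 (0.953), Prss12 (0.928), Mmp15 (0.914) and Mmp28 (0.906) were nearest. Of the members, Serpine2 (0.973) and Lrp1 (0.881) were most like A2m, and Serpina3n (-0.892) and Timp2 (-0.821) were most unlike it.

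**Figure D2:**
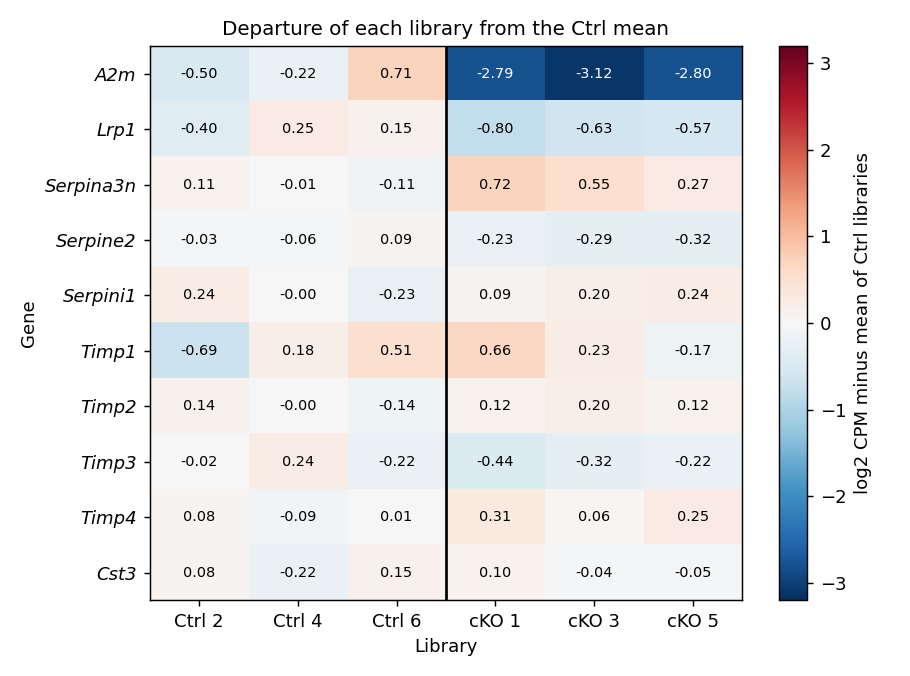
Each cell gives the log2 CPM of a gene in a library minus the mean of the 3 Ctrl libraries, with Ctrl left and Sox2 cKO right of the line. A2m in Sox2 cKO reads -3.12 to -2.79, while the other 9 genes stay between -0.80 and 0.72.

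Of the 9 members other than A2m, 3 were called at an adjusted p below 0.05, Lrp1 and Serpine2 lower and Serpina3n higher. Across all tested genes 24.6% were called, 12.4% lower and 12.2% higher, so 3 of 9 is near the background. Of these 9 genes, 3 had groups that did not overlap in CPM, where 44.7% of all tested genes did so. The median log2 fold change of the 9 members was 0.14, beside 0.02 for all tested genes. After the correction for gene length described with Lrp1, these medians were -0.18 and 0.0014, so that of the members turned its sign. Without Ctrl library 4 or without Sox2 cKO library 1, edgeR called 0 of the 9 and only 26 and 8 genes in all, while DESeq2 called 3 of the 9 in each of these cases. The lists of other inhibitors, proteases and receptors given further on also had 0 edgeR calls without either library, and DESeq2 then called 5 and 5, 10 and 8, and 5 and 5 of them.

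Lrp1 (ENSMUSG00000040249, chr10:127538161-127621148, minus strand) is the endocytic receptor for A2m and for serpin complexes. It had 515, 808 and 751 CPM in Ctrl libraries 2, 4 and 6 and 391, 439 and 457 CPM in Sox2 cKO libraries 1, 3 and 5. The groups did not overlap, and Ctrl library 2 stood nearest to Sox2 cKO. The log2 fold change was -0.69 (standard error 0.15, 95% interval -1.02 to -0.35, edgeR adjusted p = 0.015). Leaving out Ctrl library 4 or Sox2 cKO library 1 gave -0.56 (edgeR adjusted p = 0.072) and -0.62 (edgeR adjusted p = 0.076).

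The value of Lrp1 depended on gene length. Fold changes in these libraries followed length, with a median log2 fold change of 0.30 in the shortest group of 3229 genes (up to 1708 bases) and -0.25 in the longest group of 3227 genes (from 4872 bases). Lrp1, at 14888 bases, is the longest member. With each library corrected by a smooth curve of log2 CPM on length, Lrp1 stood at -0.21 on the log2 scale (standard error 0.08, edgeR adjusted p = 0.093) and was no longer called. With this correction 13.1% of all genes were called, 6.99% lower and 6.08% higher. The number of members called stayed at 3, because Cst3 took the place of Lrp1. A2m moved by 0.12, Serpine2 by 0.00 and Serpina3n by -0.16 on the log2 scale.

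**Figure D3:**
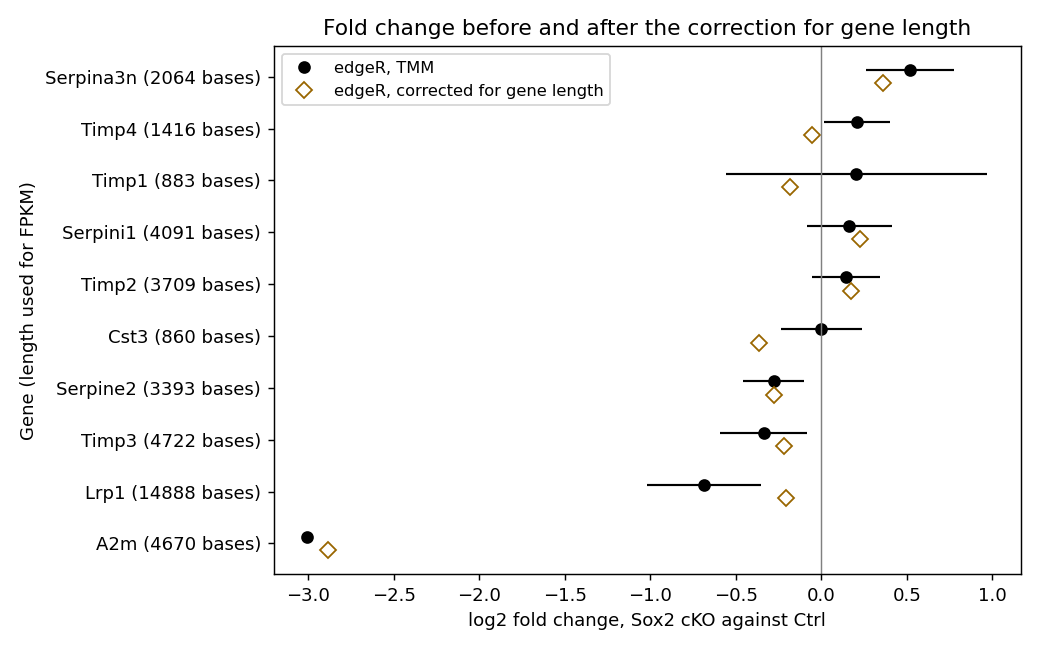
Log2 fold change of Sox2 cKO against Ctrl for each gene, with 95% intervals from edgeR (black points, no interval for A2m) and after the correction for gene length (open diamonds). The longest gene, Lrp1, moves from -0.69 to -0.21, and the shortest, Cst3, from -0.00 to -0.37.

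The serpin members went different ways. Serpine2 (protease nexin-1, ENSMUSG00000026249, chr1:79794197-79861180, minus strand) inhibits thrombin, plasmin and urokinase at cell surfaces. It had 243, 237 and 265 CPM in Ctrl and 212, 203 and 198 CPM in Sox2 cKO, with no overlap. The fall was small at -0.28 on the log2 scale (standard error 0.08, 95% interval -0.46 to -0.10, edgeR adjusted p = 0.033) and the same value, -0.28, after the length correction (edgeR adjusted p = 0.032). It was not called with upper quartile normalization (edgeR adjusted p = 0.058) or in limma on log2(FPKM + 1) (adjusted p = 0.10). Of the 6 edgeR fits that left out a library, only that without Ctrl library 2 called it, and the adjusted p ranged from 0.015 to 0.12.

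Serpina3n (ENSMUSG00000021091, chr12:104406729-104414329, plus strand) inhibits leukocyte serine proteases and is a common marker of reactive astrocytes. It had 49.8, 45.7 and 42.6 CPM in Ctrl and 75.7, 67.3 and 55.2 CPM in Sox2 cKO libraries 1, 3 and 5. The groups did not overlap, and the log2 fold change was 0.52 (standard error 0.12, 95% interval 0.26 to 0.78, edgeR adjusted p = 0.016), or 0.36 after the length correction (edgeR adjusted p = 0.039). It was called in 2 of the 6 edgeR fits that left out a library, those without Ctrl library 2 or Sox2 cKO library 5, and without Sox2 cKO library 1 it was 0.41 (edgeR adjusted p = 0.071). Without Ctrl library 4, Ctrl library 6 or Sox2 cKO library 3 the adjusted p from edgeR was 0.072, 0.055 and 0.052. The close copies in its cluster had few reads: Serpina3g had 10 to 68 counts and Serpina3c 19 to 40 counts per library. Their log2 fold changes were 0.87 and 0.15 (edgeR adjusted p = 0.12 and 0.74). How reads shared with these copies were counted is not stated.

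Neutrophil markers and Lcn2 were also called higher in Sox2 cKO, and their part in the rise of Serpina3n was not tested. All 5 tested neutrophil markers were called higher, beside 12.2% of all tested genes. After the length correction 3 of the 5 were called higher, beside 6.08% of all tested genes. The 6 listed markers summed to 11.7 to 18.4 CPM in Ctrl and to 66.9, 69.1 and 22.02 CPM in Sox2 cKO libraries 1, 3 and 5. Lcn2, an iron-carrier binding protein of neutrophils and reactive glia, had 0.748 to 1.75 CPM in Ctrl and 17.6, 10.5 and 1.51 CPM in the same Sox2 cKO libraries. Library 5 was thus the lowest Sox2 cKO library for Serpina3n, Lcn2 and the neutrophil sum. The neutrophil sum was highest in library 3, and Serpina3n in library 1. In library 5 Lcn2 lay within its Ctrl range, whereas Serpina3n lay above its own. The acute-phase list showed no common direction, with 3 higher (Lcn2, Hp and Cebpd) and 2 lower (Il6st and Stat3) of 14 tested. In all 35.7% of the list was called, beside 24.6% of all tested genes. Il6st, the signalling receptor subunit for interleukin 6, had 178, 238 and 295 CPM in Ctrl and 113, 126 and 123 CPM in Sox2 cKO (log2 fold change -0.97, edgeR adjusted p = 0.012). Stat3 had a log2 fold change of -0.22 (edgeR adjusted p = 0.047) and -0.01 after the length correction.

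Serpini1 (neuroserpin, ENSMUSG00000027834, chr3:75557547-75643495, plus strand) inhibits tissue plasminogen activator and is made by neurons. It had 115, 97.7 and 83.2 CPM in Ctrl and 104, 112 and 115 CPM in Sox2 cKO, with overlap. Its log2 fold change was 0.16 (95% interval -0.09 to 0.41, edgeR adjusted p = 0.305). Without Ctrl library 2 it was 0.29 (edgeR adjusted p = 0.027), and without Ctrl library 6 it was 0.06 (edgeR adjusted p = 0.75). Neuron markers summed to 8511 to 9031 CPM in Ctrl and 8620 to 8859 CPM in Sox2 cKO, with 0 of 8 called by edgeR, 2 of them at an unadjusted p below 0.05 and 2 called by DESeq2 (Snap25 and Nefm).

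None of the 4 TIMPs was called by edgeR, while DESeq2, which called 17.7% of its tested genes and 26.8% of the genes that passed edgeR's filter, called Timp3, and 2 of the 4 had an unadjusted p below 0.05. Timp3 (ENSMUSG00000020044, chr10:86300372-86349506, plus strand), which is held in the matrix and inhibits ADAM and ADAMTS proteases as well as MMPs, had 99.6, 119 and 86.6 CPM in Ctrl and 74.4, 81.0 and 86.6 CPM in Sox2 cKO. Its log2 fold change was -0.34 (95% interval -0.59 to -0.08, edgeR adjusted p = 0.055, DESeq2 adjusted p = 0.026) and -0.22 after the length correction (edgeR adjusted p = 0.17). Without Ctrl library 4 it was -0.21 and without Ctrl library 6 it was -0.44 (edgeR adjusted p = 0.21 and 0.045). Timp4 (ENSMUSG00000030317, chr6:115241892-115252205, minus strand) had 78.8, 70.2 and 75.0 CPM in Ctrl and 92.5, 77.8 and 88.7 CPM in Sox2 cKO (log2 fold change 0.21, 95% interval 0.02 to 0.40, edgeR adjusted p = 0.099). After the length correction its log2 fold change was -0.06 (edgeR adjusted p = 0.60), with the sign turned.

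Timp2 (ENSMUSG00000017466, chr11:118301069-118355740, minus strand), which also takes part in activating MMP2 at the cell surface, had 389, 353 and 322 CPM in Ctrl and 383, 407 and 385 CPM in Sox2 cKO. The groups overlapped, with a log2 fold change of 0.14 (95% interval -0.06 to 0.34, edgeR adjusted p = 0.26). Without Ctrl library 2 it was 0.21 (edgeR adjusted p = 0.048), and without Ctrl library 6 it was 0.08 (edgeR adjusted p = 0.62). Timp1 (ENSMUSG00000001131, chrX:20870166-20874735, plus strand), the TIMP that is induced in injury, had only 20 to 55 counts per library. It had 0.897, 1.70 and 2.17 CPM in Ctrl and 2.42, 1.77 and 1.32 CPM in Sox2 cKO, and a log2 fold change of 0.20 (95% interval -0.56 to 0.97, edgeR adjusted p = 0.69). The interval held changes in both directions, and the coefficient of variation between Ctrl libraries was 40.5%. The log2 fold change of Timp1 turned to -0.18 after the length correction.

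The position of Timp3 and Timp4 limits what their counts show. Timp1, Timp3 and Timp4 lie inside the synapsin genes Syn1, Syn3 and Syn2 on the opposite strand. Exons of Timp3 and Syn3 share 1733 bases and those of Timp4 and Syn2 share 90 bases, while Timp1 and Syn1 share 0. The kit keeps the strand, but whether the counting used it is not stated. Reads from the shared bases of the Timp3 and Timp4 pairs may therefore be mixed or left out. Syn3 fell with a log2 fold change of -0.62 (edgeR adjusted p = 0.047), from 15.8, 23.0 and 17.4 CPM in Ctrl to 8.52, 15.04 and 12.8 CPM in Sox2 cKO. Syn1 and Syn2 had 0.05 and 0.21 (edgeR adjusted p = 0.68 and 0.11). Lrp1 and Timp2 overlap Gm16217 and Cep295nl without a shared exon base, and these had at most 0.193 and 0.821 CPM.

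Cst3 (ENSMUSG00000027447, chr2:148871722-148875692, minus strand) inhibits the cysteine cathepsins and is abundant in glia and cerebrospinal fluid. It had 650, 527 and 682 CPM in Ctrl and 661, 601 and 596 CPM in Sox2 cKO, with overlap. Its log2 fold change was -0.00 (95% interval -0.24 to 0.24, edgeR adjusted p = 0.997). At 860 bases Cst3 is the shortest member, and the length correction moved it to -0.37 (edgeR adjusted p = 0.027). Its call therefore rested on that choice alone, with no other alternative calling it.

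The other inhibitors gave a mixed picture, with 10 of 45 tested genes called, 8 higher and 2 lower, which is 22.2% beside 24.6% of all genes. Their median log2 fold change was 0.18. Of 9 further secreted serpins, edgeR called 0 with 3 at an unadjusted p below 0.05, and DESeq2 called 1, Serpinf1, named here after its value was seen. Serping1, the inhibitor of complement C1, had 23.6 and 20.99 CPM in Ctrl libraries 2 and 4 and 7 CPM in Ctrl library 6, and 36.2, 31.3 and 25.5 CPM in Sox2 cKO (log2 fold change 0.84, edgeR adjusted p = 0.085). Ctrl library 6, the library low in meningeal markers, was the one apart, and the part of those cells in this value was not tested. Of 8 intracellular clade B serpins, Serpinb6b, Serpinb9 and Serpinb1b rose, with log2 fold changes of 1.16, 0.44 and 0.36 (edgeR adjusted p = 0.042, 0.030 and 0.046). Serpinb9, an inhibitor of granzyme B, had 12.2, 12.1 and 10.3 CPM in Ctrl and 17.2, 15.8 and 13.9 CPM in Sox2 cKO, and was the one of the 3 still called after the length correction.

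Of 23 tested inhibitors of other classes, most of them secreted, 5 rose and 1 fell. That was 26.1% called, while of all tested genes 12.2% were called higher and 12.4% lower. Cst6, a cystatin of the same family as Cst3, had 3.59, 2.79 and 2.22 CPM in Ctrl and 5.49, 5.83 and 5.36 CPM in Sox2 cKO (log2 fold change 0.95, edgeR adjusted p = 0.014), and 1.005 after the length correction. Pcsk1n (proSAAS), an inhibitor of a prohormone convertase, had 394, 325 and 318 CPM in Ctrl and 492, 473 and 509 CPM in Sox2 cKO (log2 fold change 0.51, edgeR adjusted p = 0.013). Cstb, Spint2 and Itih3 rose by 0.60, 0.43 and 0.35 on the log2 scale (edgeR adjusted p = 0.013, 0.030 and 0.045). Cst6 and Pcsk1n were the ones still called after the length correction, which took Cstb to 0.21 and Spint2 to 0.17 (edgeR adjusted p = 0.17 and 0.35). Spock2, a matrix proteoglycan with an inhibitor domain, fell from 1331, 1567 and 1634 CPM to 1066, 1178 and 1296 CPM (log2 fold change -0.36, edgeR adjusted p = 0.038), and stood at -0.20 after the length correction (edgeR adjusted p = 0.13).

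Of 73 tested proteases of the classes these inhibitors bind, 18 were called, 9 lower and 9 higher, or 24.7% beside 24.6% of all genes. Among 38 metalloproteases 6 fell and 3 rose. Mmp14, a membrane protease that activates MMP2, had 18.0, 25.1 and 35.3 CPM in Ctrl and 18.5, 14.8 and 10.7 CPM in Sox2 cKO (log2 fold change -0.83, edgeR adjusted p = 0.033), with overlap. Adamts4, an aggrecanase, fell from 175, 212 and 184 CPM to 118, 136 and 137 CPM (log2 fold change -0.54, edgeR adjusted p = 0.013). Mmp28 and Adamts5 had log2 fold changes of -0.72 and -0.46 (edgeR adjusted p = 0.032 and 0.040), and Adamts5 went to -0.15 after the length correction (edgeR adjusted p = 0.34). Mmp8, the neutrophil collagenase, rose by 2.06 on the log2 scale from at most 0.404 CPM to 1.05, 1.67 and 0.642 CPM (edgeR adjusted p = 0.018), beside the neutrophil markers given with Serpina3n. Adam33 and Adamts10 rose by 0.84 and 0.80 (edgeR adjusted p = 0.035 and 0.026). The median log2 fold change of the metalloproteases was -0.08 and turned to 0.07 after the length correction.

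Among 25 serine proteases, Pcsk6, Masp1 and Furin fell by 0.51, 0.51 and 0.46 on the log2 scale (edgeR adjusted p = 0.013, 0.018 and 0.022). Pcsk6 and Furin process precursor proteins, and Masp1 starts the lectin pathway of complement. Furin went to -0.26 after the length correction (edgeR adjusted p = 0.092). Htra2, Tmprss5 and Klk6 rose by 0.62, 0.44 and 0.28 (edgeR adjusted p = 0.016, 0.044 and 0.042). Klk6, a protease of oligodendrocytes, had a log2 fold change of 0.01 after the length correction. Of 10 cysteine cathepsins, the targets of Cst3, Ctsh, Ctss and Ctsl rose by 0.77, 0.77 and 0.48 (edgeR adjusted p = 0.036, 0.041 and 0.024), and these 3 did not pass after the length correction (edgeR adjusted p = 0.059, 0.13 and 0.057).

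Receptors related to Lrp1 and its partners leaned one way, with 7 of 18 tested genes lower and 0 higher. Beside this, 12.4% of all tested genes were lower, and the 18 genes have a median length of 5072 bases where all tested genes have 3060. After the length correction 3 of the 18 were lower, Lrp4 and Cd44 among them, beside 6.99% of all tested genes, and the list's median moved from -0.20 to -0.05. Lrp4, the agrin receptor, fell from 37.1, 58.4 and 72.6 CPM to 23.6, 26.1 and 27.7 CPM (log2 fold change -1.12, edgeR adjusted p = 0.012). Cd44, a hyaluronan receptor, fell from 20.6, 25.4 and 28.4 CPM to 15.9, 16.4 and 15.9 CPM (log2 fold change -0.62, edgeR adjusted p = 0.013). Sorl1 and Lrp6, a sorting receptor and a coreceptor of WNT, had -0.59 and -0.44 (edgeR adjusted p = 0.014 and 0.017), and -0.20 and -0.09 after the length correction (edgeR adjusted p = 0.073 and 0.31).

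**Figure D4:**
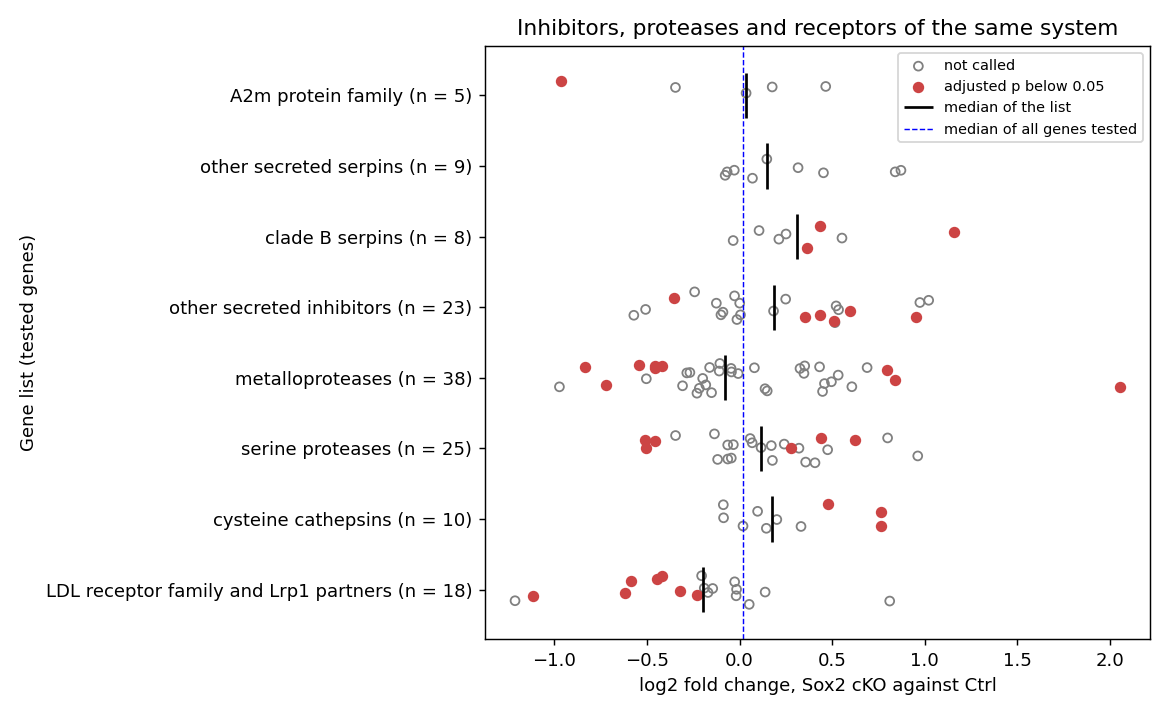
Log2 fold change of the tested genes in 8 lists, with red points called at an adjusted p below 0.05, grey circles not called, black bars the list medians and a dashed line the median of all tested genes. In the bottom row 7 receptors are called, all on the left, whereas the metalloprotease, serine protease and other secreted inhibitor rows hold called genes on both sides.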

How the data were processed

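Counts per gene were deposited without normalization. They came from single-end reads that the authors mapped with STAR 2.5 on mm10 and assigned to genes with HTSeq 0.6.1, and the strand setting of the counting is not stated. The deposited FPKM values were made by the authors from the same counts, gene lengths and library totals. The tables held 0 other columns with values of single samples, and GENCODE M21, which gave positions and overlaps, held 34490 of the 35275 identifiers.

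The test was that of edgeR 4.0.16 in R 4.3.3 (filterByExpr, TMM, quasi-likelihood test, no covariate, Benjamini-Hochberg adjustment over all tested genes, threshold 0.05, biological coefficient of variation 0.119). CPM used TMM library sizes, and log2 CPM a prior count of 2. The 95% intervals are those of the fit. Alternatives were DESeq2 1.42.0, upper quartile normalization, no filter, at least 10 counts in every library, limma 3.58.1 on log2(FPKM + 1) and log2(FPKM + 0.1) for a mean FPKM of at least 0.5, a lowess correction for gene length (span 0.3) and leaving out each library. DESeq2 fits without a library and a term for libraries with Xist above 100 CPM were added after seeing the data. On simulated data with 200 genes changed by a log2 fold change of 1, edgeR tested 15966 genes and recovered 92.4% of the changed ones, with 2.15% of its calls false. DESeq2, given 16137 genes, recovered 83% of the changed ones, with 9.29% of its calls false. The simulation gave all genes the same dispersion and no trend with length. Fold changes in the data followed length, so these rates may not hold for them. An exact permutation test of 3 against 3 libraries cannot go below p = 0.1.

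The members, gene lists and tests were chosen with earlier results of these data known. Genes named beside the members are, per list, up to 4 called genes with the largest log2 fold change in each direction and the 3 with the highest FPKM, of which C3, C4b and Serping1 are given, genes overlapping or near a member, marker genes, Sox2 and Gfap, and the genes most correlated with A2m. Of the listed symbols, Cpamd8, Spink3 and Masp3 had no matching row. Of the chi-square statistics per degree of freedom between pairs of libraries the lowest was 6.74, so no library was a copy of another. The result of 1 listed gene is not reported here.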

Additional observations from a re-analysis of the deposited data

How the results depend on the processing

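The direction of A2m, Lrp1, Serpina3n and Serpine2 was the same in the alternatives run, with A2m between -3.24 and -2.29 on the log2 scale. No paired analysis was possible because the columns carry no replicate numbers. Leaving out 1 library moved the counts of calls most. Over the 6 edgeR fits without a library, the number of genes called lay between 8, with Sox2 cKO library 1 left out, and 6119, with Ctrl library 2 left out, beside 3970, members called from 0 to 5 beside 3, other inhibitors from 0 to 16 beside 10, proteases from 0 to 23 beside 18, and receptors from 0 to 11 beside 7. The counts of 0 came without Ctrl library 4 and without Sox2 cKO library 1, where 4758 and 4945 genes had an unadjusted p below 0.05. The corresponding DESeq2 fits gave 1981 to 5624 (2290 without Ctrl library 6 and 2342 without Sox2 cKO library 1), 3 to 6, 5 to 12, 8 to 22 and 5 to 11. The length correction called 2109 genes, 4 other inhibitors and 3 receptors, and the term for Xist called 2309 genes, 4 other inhibitors and 9 proteases. With limma on log2(FPKM + 1) there were 11 proteases and 4 receptors, and with log2(FPKM + 0.1) there were 10 proteases and 4 receptors. Limma on log2(FPKM + 1) split its calls over all genes into 915 lower and 2670 higher, beside 2008 and 1962, and the median of all genes moved to 0.11 with log2(FPKM + 0.1). The causes of these differences were not tested.

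Among the members and named genes, directions turned for Timp1, Timp4, Cst3, Pzp and Slc6a13, which were not called. Timp1 had -0.18 with the length correction and -0.025 with the Xist term, and Timp4 had -0.056 with the length correction. Cst3 had 0.0056 with at least 10 counts, 0.11 in both limma fits, 0.0019 without a filter and 0.045 with upper quartile normalization. Without a library, Timp1 ranged from -0.082 to 0.48 in edgeR and from -0.095 to 0.38 in DESeq2 (-0.046 without Sox2 cKO library 1), and Cst3 from -0.11 to 0.075 in edgeR and from -0.12 to 0.060 in DESeq2, with 0.020, 0.0034 and 0.0093 without Ctrl library 2 and Sox2 cKO libraries 3 and 5. Pzp had -0.23 with the Xist term, and without a library it ranged from -0.27 to 0.50 in edgeR, with negative values in DESeq2 of -0.064 and -0.28 without Ctrl libraries 2 and 4 and -0.23 without Sox2 cKO library 3. Slc6a13 ranged from -0.021, without Ctrl library 6, to 0.72 in edgeR, and had -0.036 in DESeq2 without Ctrl library 6. Of 48 members and named genes called, 20 lost the call with the length correction, 19 with the Xist term, 14 and 13 in the limma fits with 0.1 and 1 added, 5 with upper quartile normalization, 2 without a filter and 1 in DESeq2. Over the members and named genes, 986 alternative values kept direction and side of the threshold, 306 lost the call, 40 gained it and 29 turned. With 3 libraries per group, changes as small as that of Serpine2 stand near the threshold.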

Other observations

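Of all tested genes, 12.4% were called lower and 12.2% higher by edgeR. Oligodendrocyte precursor markers, which were used only to check for other cell types, had 5 of 6 called lower. They summed to 200 to 235 CPM in Ctrl and 136 to 177 CPM in Sox2 cKO. After the length correction 2 of the 6 were lower, beside 6.99% of all tested genes. Microglia markers summed to 232 to 278 CPM and 192 to 247 CPM, with 1 of 7 called higher by edgeR, and 1 higher and 2 lower by DESeq2, and oligodendrocyte markers to 31330 to 35090 CPM and 31670 to 34200 CPM, with 0 of 7 called by edgeR and 2 by DESeq2. Endothelial markers summed to 235 to 252 CPM in Ctrl and 266 to 364 CPM in Sox2 cKO, with 2 of 6 called higher, and Sox2 cKO library 1 was the highest. Pericyte and smooth muscle markers summed to 139 to 145 CPM and 140 to 184 CPM, with 1 of 6 called higher.

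The secreted inhibitors Tfpi and Itih2, which were not called, were lowest in Ctrl library 6, and they are named here after their values were seen. Tfpi had 11.5, 11.6 and 3.57 CPM in Ctrl libraries 2, 4 and 6 and 11.8 to 15.5 CPM in Sox2 cKO. Itih2 had 13.7, 19.1 and 4.39 CPM in Ctrl and 16.6 to 19.9 CPM in Sox2 cKO. In the same library Schwann cell markers summed to 124 CPM, where the other libraries had 163 to 206 CPM, and red blood cell markers to 166 CPM, where the others had 57.1 to 98.5 CPM.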
